A study of Mus musculus with 8 samples.

Results

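The 10 genes described here encode cytosolic heat shock proteins and partners that act with them: the small heat shock proteins Hspb1 and Hspb8, the Hsp70 chaperones Hspa1a, Hspa1b and Hspa8, the Hsp90 chaperone Hsp90aa1, the Hsp110 exchange factor Hsph1, the co-chaperones Dnajb1 and Bag3, and the transcription factor Hsf1. They were taken by gene symbol from a deposited table of 21878 genes, and all 10 were found. RNA was sequenced from astrocytes, glial cells that nourish and regulate neurons, which were isolated from newborn C57BL/6 mice of wild-type genotype. Cells in 4 libraries were exposed to C1q, a complement protein, together with the cytokines IL-1α and TNFα, a cocktail used to obtain reactive astrocytes carrying the complement fragment C3d, and cells in the other 4 libraries were left untreated. The sources used here give neither the dose and duration of the cocktail nor whether the libraries of a group came from separate cultures, so p-values measure the spread between libraries, which may be technical.

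Heat shock proteins bind unfolded or misfolded proteins and keep them from aggregating. Small heat shock proteins hold unfolded chains, Hsp70 refolds them with help from J-domain proteins such as Dnajb1, nucleotide exchange factors such as Hsph1 and Bag3 release them from Hsp70, and Hsp90 completes the folding of many kinases and receptors. Hspa8 is the constitutive Hsp70, while Hspa1a and Hspa1b are the classic stress-inducible copies. When unfolded protein builds up, Hsf1 is freed from its chaperones and binds heat shock elements, inverted repeats of GAA and TTC, in front of the inducible genes. In astrocytes, Hspb1 and the related small heat shock protein Cryab are known for associating with intermediate filaments and for accumulating in Rosenthal fibres.

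Values are FPKM, fragments scaled to gene length and to the library total, so they are comparable between genes. Library totals recovered from the table lay between 19195898 and 20640490 fragments. A gene was called when limma, run on log2(FPKM + 1) over the 11845 genes that had at least 1 FPKM in at least 4 libraries, gave an adjusted p (Benjamini-Hochberg, two-sided) under 0.05. All 10 genes passed that filter. The astrocyte markers, 10 genes of which none was at 0, summed to 1213 to 1242 FPKM in cocktail and 1396 to 1551 FPKM in untreated libraries. These markers split, with 2 called higher, 7 called lower and 1 not called (limma). Slc1a2 rose to 52.3 FPKM in cocktail against 9.73 FPKM in untreated libraries, while Gfap fell to 189 against 412 FPKM. Microglial markers, 12 genes, summed to 41.1, 39.1, 60.3 and 74.6 FPKM in cocktail libraries 1 to 4 and to 43.9 to 45.7 FPKM in untreated libraries. In bulk RNA, fewer cells of a type and less RNA per cell cannot be told apart.

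The promoter of 7 of the 10 genes was found in RefSeq's annotation of GRCm38.p6, the assembly that mm10 names, as 250 bases before and 50 bases after each annotated start. Those of 4 genes are shown because these genes carry the pair-wise heat shock motif and yet stood at very different levels and changed by different amounts. Capitals mark each match to GAANNTTC or TTCNNGAA, the 2 ways in which neighbouring heat shock units can face each other. Each motif reads the same on both strands.
Hspb1: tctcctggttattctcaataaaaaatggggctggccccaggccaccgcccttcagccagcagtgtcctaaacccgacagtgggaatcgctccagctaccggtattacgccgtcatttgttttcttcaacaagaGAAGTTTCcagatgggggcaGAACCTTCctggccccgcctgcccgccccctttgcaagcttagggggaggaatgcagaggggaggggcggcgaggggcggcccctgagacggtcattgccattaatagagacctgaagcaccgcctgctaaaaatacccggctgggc
Hspb8: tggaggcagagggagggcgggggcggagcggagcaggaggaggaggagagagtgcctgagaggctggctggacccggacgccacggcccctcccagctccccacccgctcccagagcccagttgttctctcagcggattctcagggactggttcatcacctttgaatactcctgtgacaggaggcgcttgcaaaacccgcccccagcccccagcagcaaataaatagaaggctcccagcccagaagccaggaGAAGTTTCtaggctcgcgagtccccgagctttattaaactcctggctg
Hspa1a: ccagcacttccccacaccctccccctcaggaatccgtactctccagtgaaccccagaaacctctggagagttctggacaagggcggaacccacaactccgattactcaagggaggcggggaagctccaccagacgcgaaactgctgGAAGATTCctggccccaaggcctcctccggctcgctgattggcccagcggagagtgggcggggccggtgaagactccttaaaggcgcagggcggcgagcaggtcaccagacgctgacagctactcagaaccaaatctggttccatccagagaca
Hsph1: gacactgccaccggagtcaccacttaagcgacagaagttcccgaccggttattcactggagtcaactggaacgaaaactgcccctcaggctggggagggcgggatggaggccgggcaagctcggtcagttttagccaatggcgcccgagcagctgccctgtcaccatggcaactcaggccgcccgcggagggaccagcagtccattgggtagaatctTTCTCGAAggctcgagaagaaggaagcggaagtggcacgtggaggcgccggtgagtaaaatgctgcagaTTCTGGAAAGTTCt
The windows lie at chr5:135887669-135887968 on the plus strand for Hspb1, and on the minus strand at chr5:116422815-116423114 for Hspb8, chr17:34972107-34972406 for Hspa1a and chr5:149636287-149636586 for Hsph1. Hspb1 held 2 matches, beginning 117 and 97 bases upstream of its start. Hspa1a held 1 match, 104 bases upstream. The promoter of Hspa1b, at chr17:34959189-34959488, had the same base as that of Hspa1a at 296 of 300 positions and held its match at the same distance. Hspb8 held a match beginning 2 bases and Bag3 one beginning 42 bases downstream of the start. Hsph1 held 3 matches, of which a pair overlapped on a shared GAA, 36 bases downstream, to give 3 units in a row. Neither motif was found in the windows of Dnajb1.

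**Figure D1:**
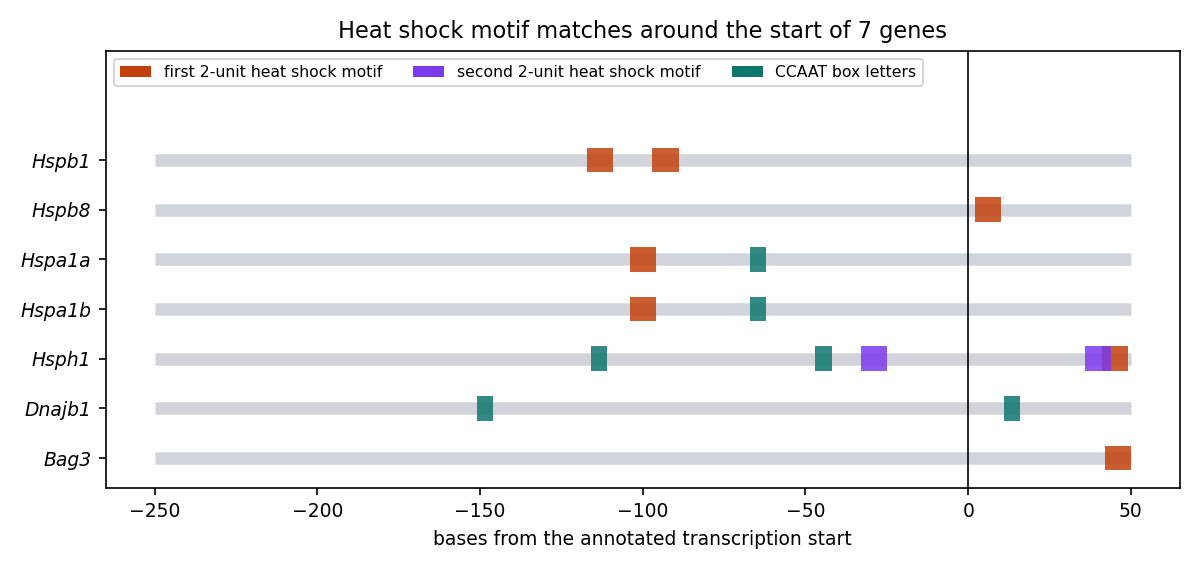
Positions of motif matches (coloured blocks, drawn to scale) from 250 bases before to 50 bases after the annotated start of 7 genes, in bases from the start. Heat shock motifs lie upstream of Hspb1, Hspa1a and Hspa1b, on both sides of the start in Hsph1 and downstream in Hspb8 and Bag3, and Dnajb1 has none. CCAAT is drawn for either strand, and only the first of 2 annotated starts is drawn for Hsph1 and Dnajb1.

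So 6 of the 7 genes had at least 1 of the motifs, as did 4587 of the 27025 genes with RefSeq promoters of this length. Counted by promoter, 15.1% of all 32851 held at least 1 (7.86% for GAANNTTC and 8.52% for TTCNNGAA). Both motifs overlapping as 3 units were in 0.603% of all promoters. A match is a description of the letters and does not show that Hsf1 bound there in these cells.

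The cocktail left the heat shock genes close to where they were or lower, and no member rose by as much as 1.2-fold. Of the 10 genes, Hspb1, Hspb8, Hspa1a, Hsp90aa1 and Dnajb1 fell, Hspa8 rose by 1.07-fold, and Hspa1b, Hsph1, Bag3 and Hsf1 did not pass the test (limma). The 6 calls, 60% of the members, compare with 67.7% of all genes tested, the 1 rise with 26.6% called higher and the 5 falls with 41.1% called lower. With median-ratio scaling 49.8% of all calls were rises, against 39.3% as deposited. In 6 of the 10 the ranges of both groups were apart, as they were in 62.7% of all genes tested. The share of members called was thus near the background and is no result about the members. Their median log2 change was -0.19, and their median absolute change 0.19, beside -0.050 and 0.20 over all genes tested. None of the 10 changed 2-fold, which 1023 genes tested did.

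**Figure D2:**
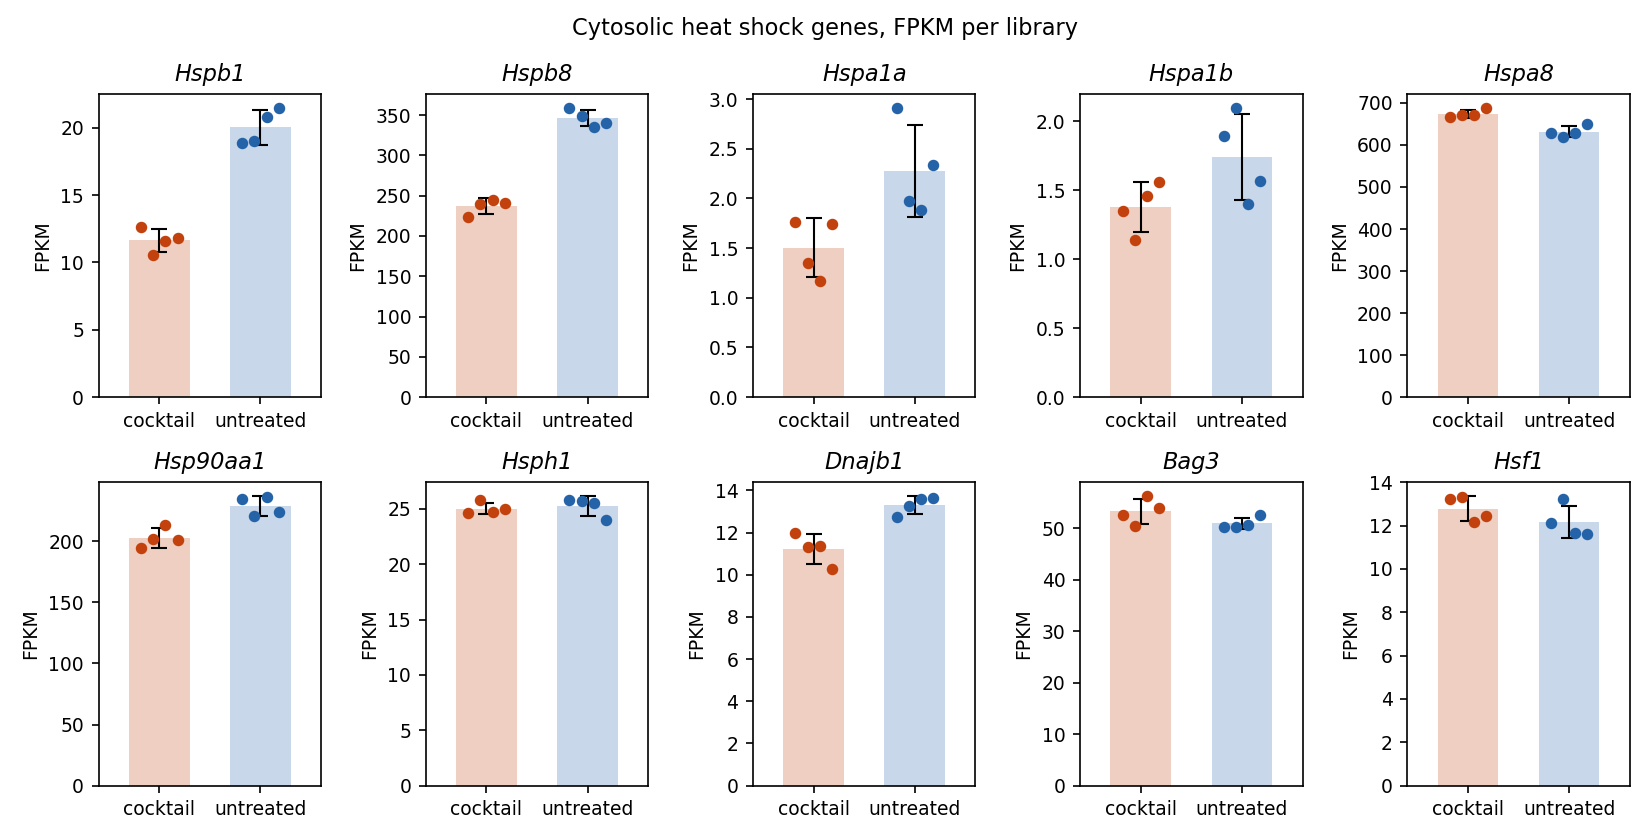
FPKM of each of the 10 genes in each library (points), with the group mean (bar) and SD (error bar, n = 4), in cocktail (left) and untreated cells (right). All cocktail points lie below all untreated points for Hspb1, Hspb8, Hspa1a, Hsp90aa1 and Dnajb1, and above them for Hspa8. Axes start at 0 and differ between panels.

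Among the small heat shock proteins, Hspb1 (NCBI gene 15507, heat shock protein 1) showed the largest change of the 10. It lies on chromosome 5 from 135887919 to 135889563 of GRCm38. Hspb1 had 12.6, 10.5, 11.6 and 11.8 FPKM in cocktail libraries 1 to 4, against 18.9, 19.0, 20.8 and 21.5 FPKM in untreated libraries 1 to 4. The groups were well apart, with the highest cocktail library under the lowest untreated library. Its means were 11.6 ± 0.855 FPKM in cocktail and 20.03 ± 1.29 FPKM in untreated libraries (SD, n = 4), a 0.58-fold level. The log2 change was -0.74 (SE 0.056; limma, adjusted p = 2.1e-07). Its fragments numbered 184 to 229 in cocktail and 329 to 400 in untreated libraries. Of the 50-base windows of its transcript, 51.7% also occurred in the pseudogene Hsp25-ps1, which has no row in the deposited table, so some fragments could have been shared.

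Hspb8 (NCBI gene 80888), the small heat shock protein that works with Bag3 in delivering misfolded proteins to autophagy, was far more abundant. It lies on chromosome 5 from 116408491 to 116422864. Hspb8 had 223, 240.1, 245 and 241 FPKM in cocktail libraries, against 359, 349, 336 and 340.5 FPKM in untreated libraries. Every cocktail library was lower than every untreated library. The log2 change was -0.54 (SE 0.034; limma, adjusted p = 3.9e-08), a 0.69-fold level. Hspb8 stood at the 98.5th percentile of genes tested in cocktail and at the 99.3rd in untreated libraries, and no 50-base window of its transcript occurred in another gene.

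The list of small heat shock genes holds 10, and 6 of them, Hspb1 and Hspb8 included, were tested. Of these 6, 5 fell and 1 rose, with a median log2 change of -0.42. Besides Hspb1 and Hspb8, Cryab, Hspb2 and Hspb11 fell and Hspb6 rose. Cryab, the αB-crystallin gene, fell most, to 64.0 ± 4.20 FPKM in cocktail against 175 ± 4.16 FPKM in untreated libraries (SD, n = 4; limma, adjusted p = 4.3e-11). Hspb6, a small heat shock protein best known from muscle, rose to 33.2 ± 2.10 FPKM against 27.1 ± 1.27 FPKM (SD, n = 4; limma, adjusted p = 1.9e-04). Hspb2 stood at 2.93 ± 0.666 FPKM in cocktail and 3.78 ± 0.432 FPKM in untreated libraries (SD, n = 4; limma, adjusted p = 0.038), and Hspb11 at 2.63 ± 0.265 FPKM in cocktail and 3.03 ± 0.110 FPKM in untreated libraries (SD, n = 4; limma, adjusted p = 0.036). Without any 1 of cocktail library 4 and untreated libraries 2 and 4, the falls numbered 3 in place of 5. They also numbered 3 with median-ratio scaling of the libraries, with no filter on low values or with a mean of at least 5 FPKM. With voom on recovered fragments, or without any 1 of cocktail libraries 1 to 3 and untreated library 3, they numbered 4. They were 4 as well without cocktail libraries 1 and 2, and without cocktail libraries 3 and 4.

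By the rule for likeness, the 3 genes whose profile over the 8 libraries lay nearest to that of Hspb1 were Cald1, Gsn and Ankrd50. Their root mean square distances from Hspb1 were 0.052, 0.058 and 0.065 on the centred log2(FPKM + 1) scale. Cald1, which encodes the actin-binding protein caldesmon, had 104 ± 3.75 FPKM in cocktail and 168 ± 10.4 FPKM in untreated libraries (SD, n = 4). Gsn, which encodes the actin-severing protein gelsolin, had 31.1 ± 1.46 FPKM in cocktail and 53.4 ± 3.19 FPKM in untreated libraries (SD, n = 4), and Ankrd50 had 9.77 ± 0.342 FPKM in cocktail and 16.2 ± 0.598 FPKM in untreated libraries (SD, n = 4). The markers of mural cells, the contractile cells of vessels in which Hspb1 and Cryab are also expressed, were lower too. Their 7 genes summed to 232 to 261 FPKM in cocktail and 1066 to 1208 FPKM in untreated libraries, nearly all from Acta2 and Tagln, which are smooth muscle genes. All 4 that were tested fell (limma). Pdgfrb, the pericyte receptor, stood at 16.4 ± 1.39 FPKM in cocktail and 20.4 ± 0.434 FPKM in untreated libraries, and Rgs5 at 0.879 ± 0.097 FPKM in cocktail and 1.56 ± 0.177 FPKM in untreated libraries (SD, n = 4). Abcc9, Kcnj8 and Myh11 were under 1 FPKM in every library. Fibroblast and meningeal markers split, with 3 rises and 3 falls among 6 tested. Their sum of 96.3 to 118 FPKM in cocktail and 233 to 254 FPKM in untreated libraries followed mostly Ogn, at 18.6 FPKM in cocktail and 137 FPKM in untreated libraries, while Lum rose to 7.69 against 0.237 FPKM. Neuronal markers also split, with 1 rise and 2 falls among 4 tested. Their sum of 52.4 to 59.6 FPKM in cocktail and 140.1 to 158 FPKM in untreated libraries was mostly Stmn2, while Gad1 rose to 3.21 against 1.11 FPKM and Tubb3 was not called. Oligodendrocyte lineage markers, with 1 rise and 3 falls among 5 tested and Mog at 0, summed to 49.5 to 52.3 FPKM in cocktail and 77.2 to 82.1 FPKM in untreated libraries. Among 8 endothelial markers Kdr alone was tested, at 0.616 FPKM in cocktail and 3.99 FPKM in untreated libraries. The other 7 were under 1 FPKM in all libraries, with Cldn5 at 0. The part of these cells in the change of Hspb1, Hspb8 and Cryab was not tested.

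The stress-inducible Hsp70 genes were scarce in both groups and were not induced. Hspa1a (NCBI gene 193740) lies on chromosome 17 from 34969359 to 34972156, and Hspa1b (NCBI gene 15511) next to it from 34956429 to 34959238. Hspa1a had 1.76, 1.35, 1.17 and 1.74 FPKM in cocktail libraries, against 2.91, 1.97, 1.89 and 2.34 FPKM in untreated libraries. Each cocktail value lay under each untreated value, though the nearest libraries were close. On the log2(FPKM + 1) scale, which understates changes at such levels, it fell by 0.38 (SE 0.106; limma, adjusted p = 0.0070). On recovered fragments the level was 0.66-fold, with a 95% interval of 0.52 to 0.84 (limma voom, adjusted p = 0.0042). Hspa1b had 1.35, 1.14, 1.46 and 1.56 FPKM in cocktail libraries, against 1.89, 2.09, 1.40 and 1.57 FPKM in untreated libraries. Its groups overlapped, since untreated libraries 3 and 4 lay within or close to the cocktail range. The log2 change of Hspa1b was -0.20 (SE 0.087; limma, adjusted p = 0.059), and on fragments its interval was 0.64- to 1.00-fold. Depth limits both genes, with 67 to 99 fragments of Hspa1a in cocktail and 106 to 158 in untreated libraries.

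These genes share much of their sequence. Of the 50-base windows of the Hspa1a transcript, 58.8% also occurred in Hspa1b, and 62.3% of those of Hspa1b occurred in Hspa1a, so the counting could have split fragments between them. Summed, the pair had 3.11, 2.49, 2.63 and 3.30 FPKM in cocktail libraries, against 4.80, 4.07, 3.29 and 3.91 FPKM in untreated libraries. The sum of cocktail library 4 just exceeded that of untreated library 3, and the other libraries kept the groups apart. Over 4 libraries each, the pair took 649 fragments in cocktail and 891 in untreated cells. An annotated gene on the other strand, Gm20481, covers 564 exonic bases of Hspa1a, and the sources used here do not state whether the counting used strand.

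Hspa8 (NCBI gene 15481), the constitutive Hsp70, was the most abundant of the 10 and rose slightly. It lies on chromosome 9 from 40801276 to 40805202. Hspa8 had 666, 672, 670.4 and 688 FPKM in cocktail libraries, against 629, 619, 629 and 649.7 FPKM in untreated libraries. All cocktail libraries were higher than all untreated libraries. The log2 change was 0.093 (SE 0.027; limma, adjusted p = 0.0085), or 1.07-fold on fragments with a 95% interval of 1.03 to 1.11 (limma voom, adjusted p = 0.0026). Of its transcript windows, 73.2% occurred in 11 other genes, 70.0% in the pseudogene Gm15459, so its level depends on how the authors counted such fragments.

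Of 11 genes of the Hsp70 and Hsp110 list, 9 were tested, 5 fell, 1 rose and 3 were not called, with a median log2 change of -0.31. Hspa2, an Hsp70 best known from spermatogenesis and also expressed in brain, fell to 15.2 ± 1.03 FPKM in cocktail against 26.2 ± 2.07 FPKM in untreated libraries (SD, n = 4; limma, adjusted p = 3.6e-07). Hspa4l, an Hsp110 relative, fell to 23.2 ± 0.574 FPKM against 31.7 ± 0.545 FPKM (SD, n = 4; limma, adjusted p = 7.3e-08), and Hspa14, a ribosome-associated Hsp70, to 6.62 against 8.41 FPKM. Hsph1 itself (NCBI gene 15505, chromosome 5 from 149616843 to 149636498) had 24.6, 25.8, 24.7 and 24.9 FPKM in cocktail libraries, against 25.8, 25.7, 25.6 and 24.0 FPKM in untreated libraries. The ranges overlapped almost fully. The log2 change of Hsph1 was -0.013 (SE 0.032; limma, adjusted p = 0.74), and the 95% interval on fragments was 0.94- to 1.04-fold.

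The cytosolic Hsp90 genes moved in opposite directions. Hsp90aa1 (NCBI gene 15519), the inducible form, lies on chromosome 12 from 110691036 to 110696395. Hsp90aa1 had 194, 201, 213 and 200.4 FPKM in cocktail libraries, against 235, 220.4, 236 and 224 FPKM in untreated libraries. No cocktail library reached the lowest untreated library. It fell by 0.18 on the log2 scale (SE 0.035; limma, adjusted p = 7.2e-04), to a 0.89-fold level. Hsp90ab1, the constitutive form, rose to 874 ± 9.91 FPKM in cocktail against 627 ± 9.43 FPKM in untreated libraries (SD, n = 4; limma, adjusted p = 8.7e-09). Of the transcript windows of Hsp90aa1, 58.5% occurred in 4 other genes, mostly the pseudogene Gm12346.

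Stip1, which links Hsp70 to Hsp90, showed the largest change among the Hsp90 co-chaperones. Stip1 had 125, 131, 127 and 127 FPKM in cocktail libraries, against 70.3, 67.1, 70.0 and 71.7 FPKM in untreated libraries (limma, log2 change 0.86, adjusted p = 1.1e-10). The groups were far apart, at a 1.83-fold level. Of 15 genes of Hsp90 and its co-chaperones, all tested, 5 rose, 4 fell and 6 were not called, with a median log2 change of -0.017. Cdc37, which brings kinases to Hsp90, rose to 56.5 ± 2.60 against 48.0 ± 1.13 FPKM, while its relative Cdc37l1 fell to 7.95 ± 0.238 against 9.93 ± 0.337 FPKM (SD, n = 4).

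Dnajb1 (NCBI gene 81489), the J-domain protein that passes clients to Hsp70, fell slightly. It lies on chromosome 8 from 83608175 to 83612653. Dnajb1 had 11.97, 11.3, 11.3 and 10.3 FPKM in cocktail libraries, against 12.7, 13.2, 13.6 and 13.6 FPKM in untreated libraries. The groups did not overlap, with cocktail library 4 the lowest. The log2 change was -0.23 (SE 0.045; limma, adjusted p = 8.5e-04). Of 16 cytosolic J-domain genes, 15 were tested, 8 rose, 4 fell and 3 were not called. The rises numbered 5 without cocktail libraries 3 and 4, 7 without cocktail libraries 1 and 2 and 6 without untreated library 3. Dnaja2, a J-domain partner of Hspa8, rose to 82.2 ± 1.48 FPKM in cocktail against 64.3 ± 1.18 FPKM in untreated libraries (SD, n = 4; limma, adjusted p = 1.6e-07). Dnajc21 rose to 7.39 against 5.56 FPKM, while Dnajc9, a histone chaperone, fell to 25.4 against 36.5 FPKM and Dnaja4 fell to 8.33 against 10.4 FPKM.

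Bag3 (NCBI gene 29810), the Hsp70 exchange factor that works with Hspb8, did not pass the test. It lies on chromosome 7 from 128523583 to 128546981. Bag3 had 52.5, 50.4, 56.2 and 54.0 FPKM in cocktail libraries, against 50.2, 50.3, 50.7 and 52.5 FPKM in untreated libraries. Cocktail libraries 3 and 4 lay above all untreated libraries, and 1 and 2 within their range. Its log2 change was 0.062 (SE 0.034; limma, adjusted p = 0.13), and on fragments the 95% interval was 0.99- to 1.10-fold. After median-ratio scaling of the libraries Bag3 was called higher (log2 change 0.12; limma, adjusted p = 0.0052), as it was without cocktail library 2 (0.088; adjusted p = 0.034) or without cocktail libraries 1 and 2 (0.11; adjusted p = 0.016). Of 6 genes of BAG and Hspbp1 exchange factors, 2 rose, 1 fell and 3 were not called, and 1 rose without cocktail libraries 3 and 4. Bag2, which inhibits the ubiquitin ligase Stub1, fell to 5.74 ± 0.708 against 8.44 ± 0.545 FPKM, and Bag1 rose to 63.9 ± 3.42 against 54.7 ± 1.17 FPKM (SD, n = 4).

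Hsf1 (NCBI gene 15499), the regulator of the response, did not pass the test either. It lies on chromosome 15 from 76477362 to 76501155. Hsf1 had 13.2, 13.3, 12.2 and 12.4 FPKM in cocktail libraries, against 12.1, 13.2, 11.7 and 11.6 FPKM in untreated libraries. The ranges overlapped, with untreated library 2 as high as cocktail library 1. The log2 change of Hsf1 was 0.067 (SE 0.047; limma, adjusted p = 0.23), and 0.13 after median-ratio scaling (limma, adjusted p = 0.035). Messenger levels do not report the activity of Hsf1, which is set largely by its binding state and modification. Of 6 heat shock factors and binding proteins, 3 were tested. Hsf2 stood at 3.94 in cocktail and 4.67 FPKM in untreated libraries (limma, adjusted p = 0.0050), and Hsbp1, a small protein that binds Hsf1, at 165 ± 2.50 FPKM in cocktail and 173 ± 3.96 FPKM in untreated libraries (limma, adjusted p = 0.034; SD, n = 4), both called lower. Either 1 or 2 of these falls were called, depending on the alternative. Hsf4 and Hsf5 stayed under 1 FPKM in all libraries.

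**Figure D3:**
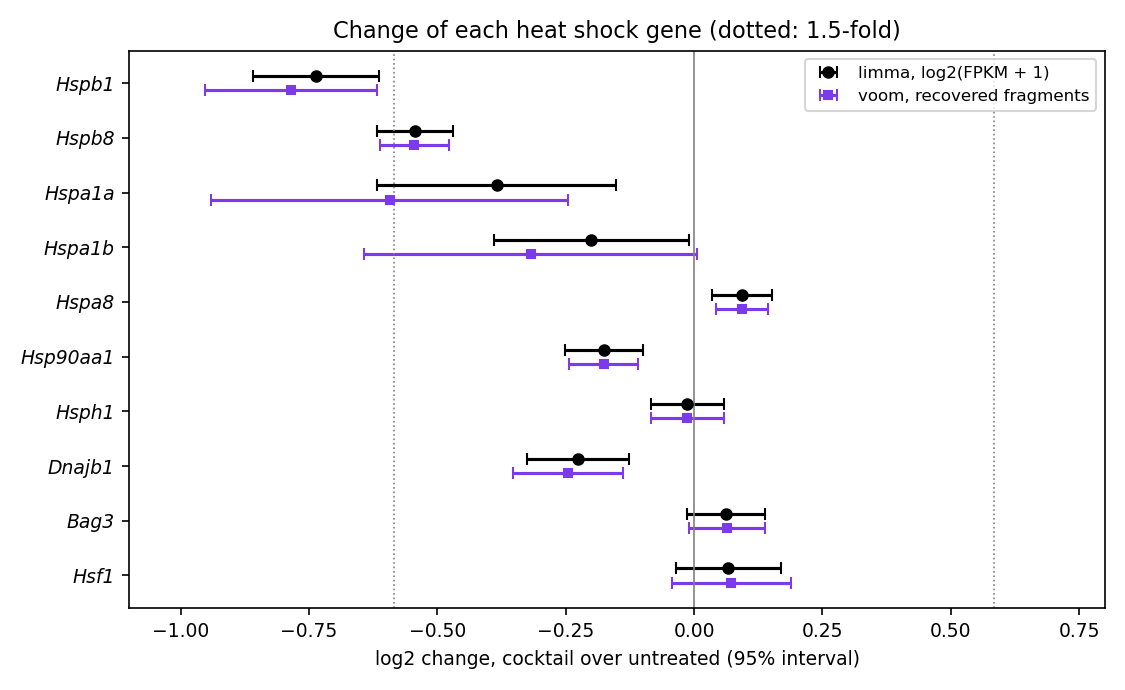
Log2 change of each of the 10 genes, cocktail over untreated, with 95% intervals, from limma on log2(FPKM + 1) (circles) and from voom on recovered fragments (squares). Dotted lines mark 1.5-fold either way. Intervals on fragments stay inside them for 6 genes and reach past the lower line for Hspb1, Hspb8, Hspa1a and Hspa1b. None reaches the upper line.

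In order of level, untreated libraries ran Hspa8, Hspb8, Hsp90aa1, Bag3, Hsph1, Hspb1, Dnajb1, Hsf1, Hspa1a and Hspa1b. The neighbours Dnajb1 and Hsf1 overlapped there, as did Hspa1a and Hspa1b. In cocktail libraries the order down to Hsph1 was kept, while Hspb1 had come down into the range of Dnajb1, and Hsf1 had the highest mean of these 3 genes. The percentile of Hspb1 among genes tested was 54.8 in cocktail and 71.1 in untreated libraries. Hspa8, Hspb8 and Hsp90aa1 held between 90.2% and 90.8% of the summed FPKM of the 10 genes in every library. That sum was 1202 to 1247 FPKM in cocktail and 1315 to 1347 FPKM in untreated libraries.

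Ratios between genes of 1 library do not depend on how libraries are scaled. Hspb8 over Bag3, partners in autophagy of misfolded proteins, averaged 4.46 ± 0.217 in cocktail and 6.80 ± 0.303 in untreated libraries (SD, n = 4). Hsp90aa1 over Hsp90ab1 averaged 0.231 ± 0.0064 in cocktail and 0.365 ± 0.011 in untreated libraries (SD, n = 4). Hspb1 over Hspa8 averaged 0.0173 ± 0.00133 in cocktail and 0.0317 ± 0.00157 in untreated libraries (SD, n = 4). The inducible pair over Hspa8 averaged 0.0043 ± 0.00054 in cocktail and 0.0064 ± 0.0010 in untreated libraries, and Dnajb1 over Hspa8 0.0167 ± 0.00127 in cocktail and 0.0210 ± 0.00061 in untreated libraries (SD, n = 4). In all 5 ratios each cocktail library lay below each untreated library. The ratios were chosen after the values of the genes had been seen, so they are a description, with no test.

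**Figure D4:**
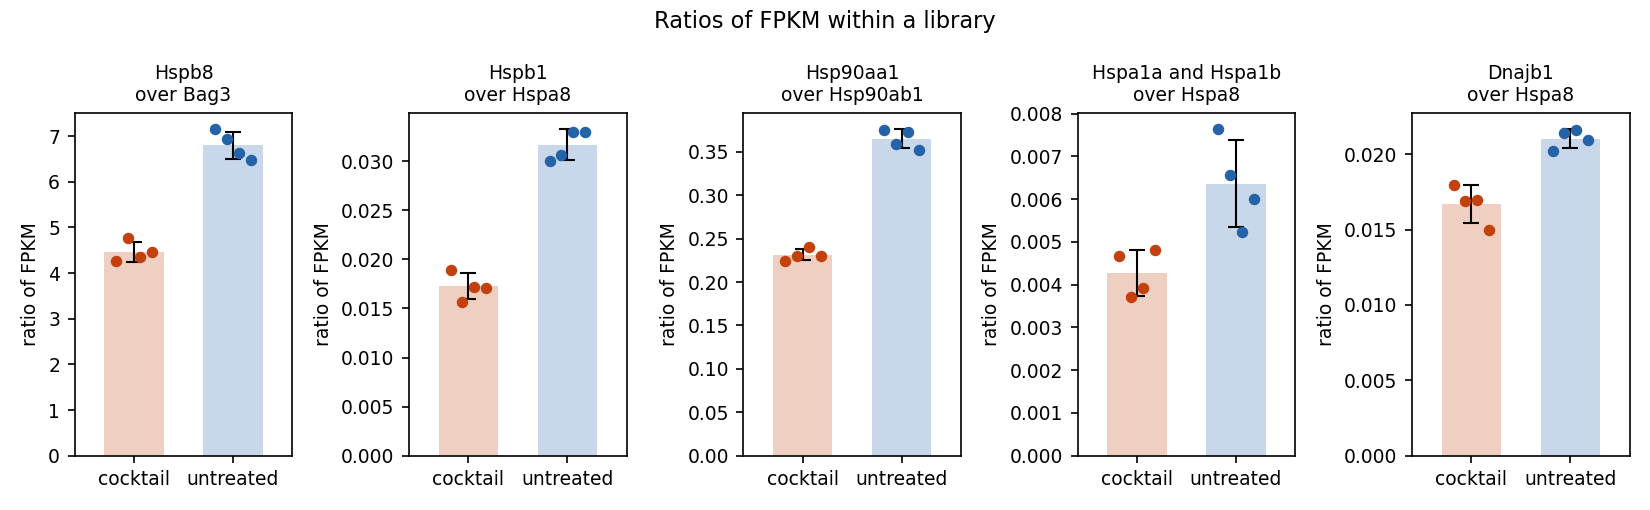
Ratios of FPKM between genes of the same library (points), with the group mean (bar) and SD (error bar, n = 4), in cocktail (left) and untreated cells (right). In each of the 5 panels all cocktail points lie below all untreated points. Axes start at 0 and differ between panels.

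Chaperones of other compartments and of other kinds were counted in the same way. Of 15 endoplasmic reticulum chaperones, all tested, 13 rose and 2 fell, with a median log2 change of 0.26. Hspa5, the Hsp70 of the endoplasmic reticulum, rose to 293 ± 9.40 FPKM in cocktail against 181 ± 1.67 FPKM in untreated libraries (SD, n = 4; limma, adjusted p = 7.0e-10). Pdia6, a disulfide isomerase, rose to 142 against 87.5 FPKM and Calr, a lectin chaperone, to 457 against 297 FPKM, while Dnajc3, a J-domain partner of Hspa5, fell to 32.7 against 43.6 FPKM. Of 10 mitochondrial chaperones 8 rose and 2 were not called, with a median of 0.16. Without cocktail libraries 3 and 4, 5 rose, and without cocktail libraries 1 and 2, 6 rose. With 1 library left out, 6 to 8 rose. Hspa9, the mitochondrial Hsp70, rose to 110.4 ± 2.91 against 96.9 ± 2.31 FPKM (SD, n = 4; limma, adjusted p = 1.0e-04). Trap1, the mitochondrial Hsp90, rose to 41.1 against 36.1 FPKM, the J-domain gene Dnaja3 to 22.6 against 19.3 FPKM and Grpel2, an exchange factor of Hspa9, to 6.89 against 5.95 FPKM.

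Of 14 genes of the TRiC chaperonin and prefoldin, which fold actin and tubulin, 9 rose, 1 fell and 4 were not called, with a median of 0.13. Cct2 rose to 107 against 94.8 FPKM, Cct3 to 103 against 88.5 FPKM and Pfdn6 to 27.0 against 23.0 FPKM, while the prefoldin gene Vbp1 fell to 22.1 against 24.8 FPKM. Among 10 ubiquitin and autophagy partners 3 rose and 4 fell. Synpo2, which binds Bag3 in autophagy of muscle proteins, fell to 1.34 ± 0.142 FPKM in cocktail against 5.59 ± 0.314 FPKM in untreated libraries (SD, n = 4; limma, adjusted p = 5.7e-10). Sqstm1, the autophagy receptor p62, rose to 320.3 against 262 FPKM and the ubiquitin gene Ubb to 558 against 460.2 FPKM, and Hdac6, which gathers misfolded protein into aggresomes, to 13.4 against 10.7 FPKM. Stub1, the ubiquitin ligase of Hsp70 and Hsp90, stood at 48.0 FPKM in cocktail and 49.1 FPKM in untreated libraries (limma, adjusted p = 0.58). Over the 93 tested genes of these lists other than the 10, 52.7% rose and 24.7% fell, with a median log2 change of 0.097, beside 26.6% and 41.1% of all genes tested.

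**Figure D5:**
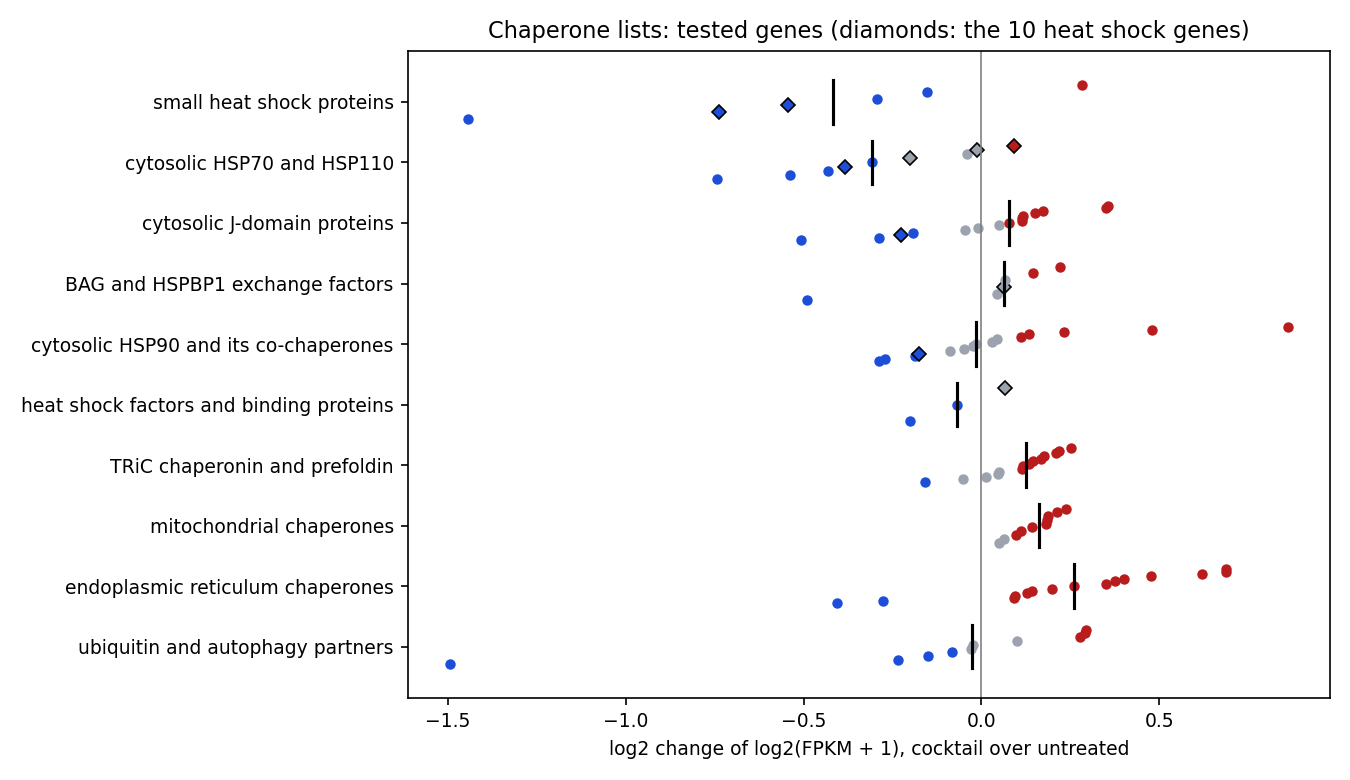
Log2 change of each tested gene of 10 chaperone lists, cocktail over untreated, on the log2(FPKM + 1) scale, with the list median (black line). Red and blue genes were called higher and lower, grey genes were not called, and diamonds are the 10 heat shock genes. Medians run from -0.42 for small heat shock proteins to 0.26 for endoplasmic reticulum chaperones.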

How the data were processed

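Polyadenylated RNA was isolated with TRIzol and made into libraries with a stranded mRNA kit, per the labels' protocols. The authors deposited FPKM values for 8 libraries (4 cocktail, 4 untreated). The submitters' processing notes name DESeq and mm10. The sources used here name no aligner or counter. Groups were read from sample titles, since the treatment labels of 3 cocktail libraries spell C1q with other digits.

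Dividing out the library totals gave fragments as the smallest whole numbers in the ratio of the libraries, to a relative tolerance of 1e-09, for the 16557 genes above 0 in at least 2 libraries. A count of 0 allows 3 fragments, or 0.0727 to 0.0781 FPKM at 2000 bases, for counting error only. limma 3.58.1 (R 4.3.3) was fitted with a variance trend and no covariate on log2(FPKM + 1). Alternatives were another pseudocount, other filters, median-ratio scaling, no trend, voom on recovered fragments, a replicate block and left-out libraries.

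Named genes were the 10 members, up to 4 called genes a list with groups apart and a mean of at least 5 FPKM, the 3 genes most like the most changed member, and markers. Hspb2, Hspb11, Hsf2, Hsf4, Hsf5 and Stub1 were named after their values were seen. Members and lists were chosen with earlier results of these data known. Positions came from RefSeq (GRCm38.p6), in which all 10 matched by NCBI gene number, and transcripts from GENCODE M21.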

Additional observations from a re-analysis of the deposited data

Results flagged for a closer look

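Among 20 groups of 4 libraries (10 genes in 2 groups), 1 library stood apart from the other 3. Untreated library 4 had 24.0 FPKM of Hsph1, while the other untreated libraries had 25.6, 25.7 and 25.8 FPKM. The gap was 0.895 of the whole range of the group, above Dixon's critical value for 4 values. Chance alone flags about 1 in 20 groups.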

How the results depend on the processing

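Over 17 alternatives (16 for Hspa1a and Hspa1b, which a mean of at least 5 FPKM removed), Hspb1, Hspb8, Hspa1a, Hspa8, Hsp90aa1 and Dnajb1 kept their direction and their call. Their log2 changes ranged from -0.78 to -0.68 for Hspb1, -0.58 to -0.48 for Hspb8, -0.59 to -0.30 for Hspa1a, 0.082 to 0.16 for Hspa8, -0.21 to -0.11 for Hsp90aa1 and -0.28 to -0.17 for Dnajb1. Hsph1 was called under none, and its sign turned with median-ratio scaling. Hspa1b was called in 3 alternatives, without cocktail library 4 (-0.24; limma, adjusted p = 0.040), untreated library 3 (-0.26; 0.019) or cocktail libraries 3 and 4 (-0.28; 0.036).

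Members called higher numbered 3 with median-ratio scaling, 2 without cocktail libraries 1 and 2, and 1 to 2 when 1 library was left out, against 1 as reported. Median-ratio scaling moved all genes by 0.058 at the median and gave 4088 rises and 4118 falls, so that 49.8% of calls were rises against 39.3% as deposited. The cause of these changes was otherwise not tested. With the replicate block 3121 genes rose and 4829 fell, and the members' calls were the same in number. Deviations of same-numbered libraries from their group means correlated at -0.044, 0.078, 0.086 and -0.0071. Those of differently numbered libraries ran from -0.105 to 0.053. Correlations this small cannot settle whether the numbers pair the libraries. Depth limits Hspa1a and Hspa1b, though their spread between libraries was mostly above that from counting alone. For Hspa1a the spread was 19.6% of the mean in cocktail and 20.4% in untreated libraries, against 10.9% and 8.9% from counting. For Hspa1b it was 13.0% and 18.0%, against 11.3% and 10.2%. Its excess in cocktail was too small to read from 4 libraries.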
